A study of Vulpes vulpes with 8 samples.

Results

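The genes described here are 7 markers of mast cells, CMA1, CPA3, KIT, FCER1A, MS4A2, HDC and HPGDS, read in the gingiva of red foxes (Vulpes vulpes). Members were taken by symbol: all probe sets that the array's annotation ties to 1 of these symbols and to no other. This gave 13 probe sets for 7 of the 15115 genes that the annotation names singly. Gingiva was compared between foxes with and without hereditary hyperplastic gingivitis (HHG), an inherited disease in which the gum overgrows. The affected group held 5 foxes, namely males 19, 55 and 107 and females 381 and 757. The unaffected group held 3 foxes, namely males 86 and 97 and female 402. Per the labels' protocols, pieces of gum were kept in an RNA stabilising solution, and disease was called from early signs, a red, raised and granular gum along the tooth margins. Sampling took place either in the pelting season, after euthanasia, or in late spring under anaesthesia. The labels assign no season or age to a fox, so neither was tested. No allele, strain or treatment is given for either group.

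Mast cells are resident immune cells of connective tissue and mucosa, and gum tissue normally holds them close to vessels and beneath the epithelium. They mature under stem cell factor, which acts through the receptor tyrosine kinase KIT, and they bind IgE through a receptor whose alpha chain is FCER1A and whose beta chain is MS4A2. Cross-linking of that receptor empties granules that hold histamine, made by HDC, and proteases such as chymase (CMA1) and carboxypeptidase A3 (CPA3). Activated mast cells also make prostaglandin D, for which HPGDS is the synthase. Several of these genes are not exclusive to mast cells: KIT is also a melanocyte receptor, FCER1A is also carried by dendritic cells and basophils, and MS4A2 by basophils.

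Each fox had 1 array, the Affymetrix Canine 2, whose probe sets were designed for the dog, a relative of the fox. A level is the MAS5 signal, a linear intensity. Differences are affected minus unaffected means of log2(signal + 16), an offset that shrinks the differences of dim probe sets. Background on each array was taken from 42 bacterial control probe sets as their 95th percentile, which ranged from 7.42 to 16.6. It was lowest in unaffected foxes 402 and 97 (7.42 and 9.46) and highest in affected foxes 55 and 107 (16.6 and 14.7). The same signal can therefore count as above background on some arrays and at it on others. Probe sets whose name ends in _s_at hold probes that can match more than 1 transcript. Of the listed tissue markers, 8 of 8 fibroblast genes and 5 of 6 keratinocyte genes were above background on all 8 arrays. From 63.4% to 74.7% of all probe sets other than controls were above background on an array, so these counts do not test the tissue label. The number of arrays limits the precision, and in bulk tissue fewer mast cells and less RNA per mast cell cannot be told apart.

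The mast cell genes were dim. Of the 13 probe sets, 5 were above background on all 8 arrays (CPA3, both of KIT, 1 of FCER1A and 1 of MS4A2) and 8 were at background on at least 1 array. A filter dropped the dimmest 40% of all probe sets by mean log2 value, and 7 member probe sets from 5 genes passed it. HDC and HPGDS had no tested probe set. The plot of signals shows each member against the background.

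**Figure D1:**
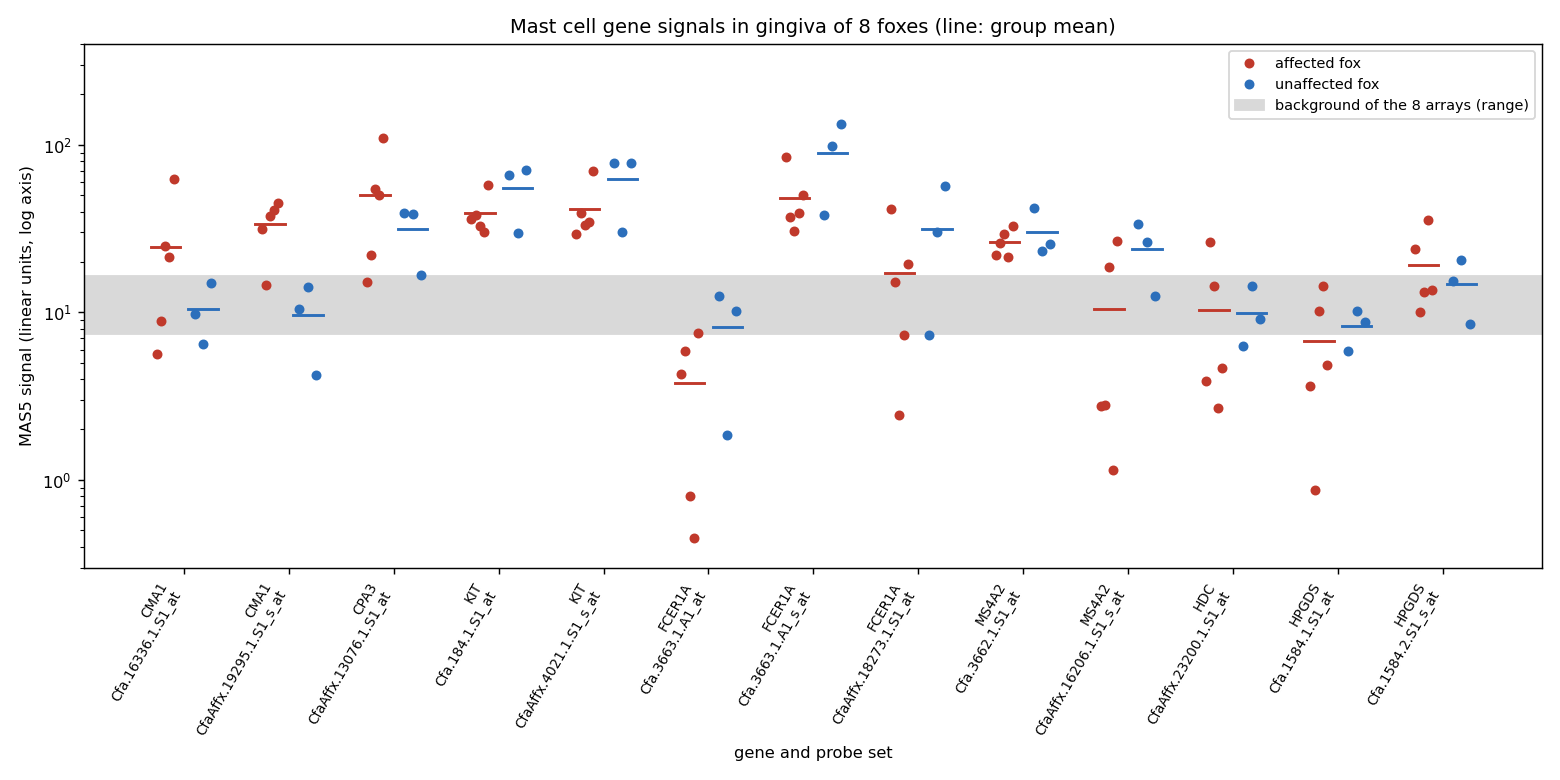
MAS5 signal (linear units on a log axis) of the 13 mast cell probe sets in 5 affected (red) and 3 unaffected (blue) foxes, with a line at each group mean and a grey band for the range of the arrays' background, 7.42 to 16.6. The 2 probe sets of KIT lie above the band in every fox, while those of HDC and 1 of HPGDS lie mostly within or below it; only CMA1 CfaAffx.19295.1.S1_s_at has groups that do not overlap.

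Among the granule proteases, chymase stood higher in affected gum in 1 of its 2 probe sets, without passing the test over the whole array. CMA1, a chymotrypsin-like protease that cleaves angiotensin and matrix proteins, read 31.4, 14.6, 37.7, 40.9 and 44.8 in affected foxes 19, 55, 107, 381 and 757 on CfaAffx.19295.1.S1_s_at. On the same probe set unaffected foxes 86, 97 and 402 read 10.5, 14.2 and 4.24. All affected foxes lay above all unaffected foxes, but fox 55, the lowest affected, exceeded fox 97, the highest unaffected, by less than 1 unit. The means were 33.9 ± 11.9 (SD, n = 5) and 9.64 ± 5.04 (SD, n = 3), and they differed by 0.94 ± 0.25 (SE) on the log2 scale, with a 95% interval of 0.38 to 1.50. limma gave an unadjusted p of 0.00379 and an adjusted p of 0.9999 over 25754 probe sets. The two-sided exact permutation p was 0.0179, the smallest that 56 splits of 8 foxes into 5 and 3 allow. The affected mean of 5.60 on the log2 scale lay above the filter, at 5.05, and the unaffected mean of 4.66 below it. The probe set therefore passed only through its higher group, and its p-values, interval and lack of overlap are given as a description. Without a filter, limma over all 42924 probe sets gave an unadjusted p of 0.00368 and an adjusted p of 0.9999. This probe set was at background in 1 affected fox (55) and in 2 unaffected foxes, so the unaffected level is near the limit of what the array reads. Without any 1 fox the difference stayed between 0.78 and 1.11.

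The second chymase probe set did not separate the groups. CMA1 Cfa.16336.1.S1_at, which fell below the filter and was not tested with limma, read 5.64, 8.88, 25.0, 21.3 and 62.5 in affected foxes 19, 55, 107, 381 and 757. It read 9.82, 6.52 and 15.0 in unaffected foxes 86, 97 and 402. Foxes 107, 381 and 757 were high on both chymase probe sets, whereas fox 19 was high on the first and lowest of all on the second. The log2 difference was 0.48 with overlapping groups (two-sided exact permutation p = 0.375). It was at background in 2 affected and 2 unaffected foxes, and without affected fox 757 the difference was 0.20.

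CPA3, the metalloprotease that is stored beside chymase and trims peptides and venoms, was above background in every fox and varied widely within both groups. Its probe set read 15.2, 22.0, 54.3, 50.4 and 109 in affected foxes 19, 55, 107, 381 and 757 and 39.3, 38.5 and 16.8 in unaffected foxes 86, 97 and 402. Affected foxes lay both at the bottom and at the top, around all 3 unaffected ones. The means were 50.2 ± 37.1 (SD, n = 5) and 31.5 ± 12.8 (SD, n = 3). The difference of 0.34 ± 0.42 (SE) on the log2 scale had a 95% interval of -0.59 to 1.27 (limma, unadjusted p = 0.431). Without affected fox 757 it was 0.070, without unaffected fox 402 0.095, and without affected fox 19 0.57.

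**Figure D2:**
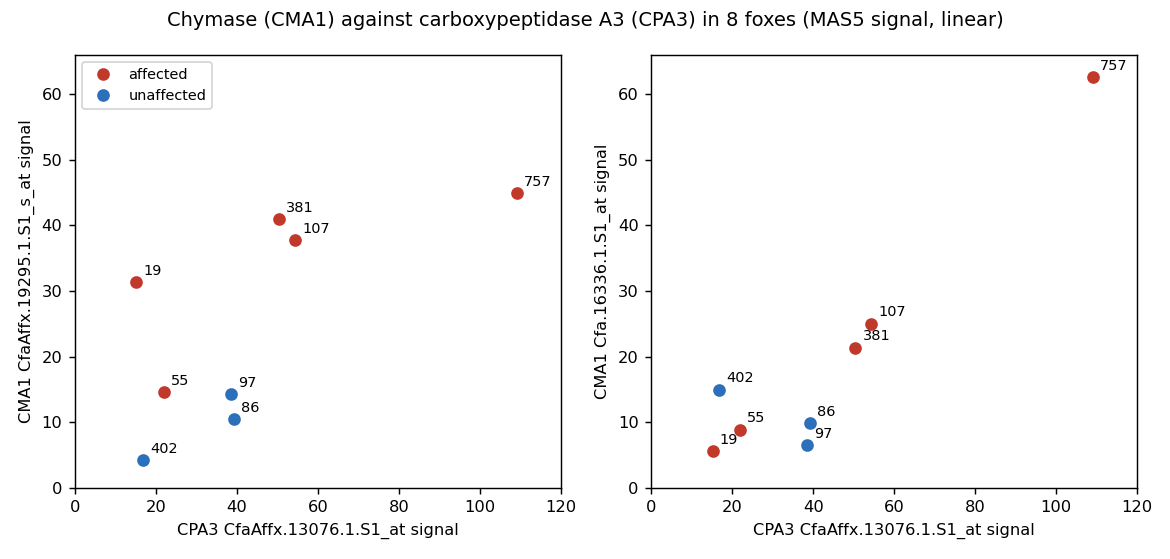
Signal of each CMA1 probe set (vertical axis, linear) against that of CPA3 (horizontal axis, linear) in 8 foxes, labelled by number and coloured by group. Affected foxes 107, 381 and 757 are high on both axes of both panels, while affected fox 19 has 31.4 on the first CMA1 probe set at a CPA3 signal of 15.2.

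KIT, the stem cell factor receptor on which mast cells depend for survival, had lower means in affected foxes on both probe sets. Cfa.184.1.S1_at read 35.9, 37.9, 32.8, 30.2 and 57.9 in affected foxes 19, 55, 107, 381 and 757 and 66.2, 29.9 and 70.7 in unaffected foxes 86, 97 and 402. Unaffected foxes 86 and 402 were the highest, but unaffected fox 97 was the lowest of all 8, so the groups overlapped fully. The means were 38.9 ± 11.0 (SD, n = 5) and 55.6 ± 22.4 (SD, n = 3), a log2 difference of -0.35 ± 0.25 (SE; 95% interval -0.90 to 0.21; limma, unadjusted p = 0.196).

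The other KIT probe set gave nearly the same order of foxes. CfaAffx.4021.1.S1_s_at read 29.3, 39.0, 33.2, 34.5 and 70.0 in affected foxes 19, 55, 107, 381 and 757 and 78.4, 30.1 and 78.2 in unaffected foxes 86, 97 and 402. Foxes 86, 402 and 757 were again well above the other 5. The difference was -0.42 ± 0.29 (SE; 95% interval -1.07 to 0.24; limma, unadjusted p = 0.186). Both differences moved most with unaffected fox 97, to -0.64 and -0.76 without it, and were -0.18 and -0.25 without unaffected fox 402.

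The IgE-binding chain FCER1A also had lower means in affected foxes, on both of its tested probe sets. Cfa.3663.1.A1_s_at, above background on all 8 arrays, read 84.6, 37.2, 30.7, 39.4 and 50.3 in affected foxes 19, 55, 107, 381 and 757. It read 38.2, 98.3 and 133 in unaffected foxes 86, 97 and 402. Unaffected foxes 97 and 402 and affected fox 19 were high and the other 5 were low, so each group held both kinds. The means of 48.4 ± 21.4 (SD, n = 5) and 89.8 ± 48.0 (SD, n = 3) differed by -0.65 ± 0.35 on the log2 scale (SE; 95% interval -1.42 to 0.12; limma, unadjusted p = 0.0906). Without unaffected fox 86 the difference was -1.07, and without unaffected fox 402 it was -0.34.

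On CfaAffx.18273.1.S1_at, FCER1A read 41.3, 15.2, 2.44, 7.33 and 19.4 in affected foxes 19, 55, 107, 381 and 757 and 7.29, 30.1 and 56.5 in unaffected foxes 86, 97 and 402. The same 3 foxes, 402, 19 and 97, were the highest. The difference was -0.48 ± 0.42 (SE; 95% interval -1.41 to 0.46; limma, unadjusted p = 0.282), or -0.91 and -0.095 without unaffected foxes 86 and 402. In 3 affected foxes and 1 unaffected fox this probe set was at background. It too passed the filter only through its higher group, with mean log2 values of 4.94 in affected and 5.42 in unaffected foxes, so its difference is a description. The third FCER1A probe set, Cfa.3663.1.A1_at, was at background in all 5 affected foxes and above it in 1 unaffected fox (402, 10.2), so no difference is given for it.

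MS4A2, the beta chain that amplifies the receptor's signal, had the smallest difference of the tested members. Its tested probe set Cfa.3662.1.S1_at read 21.9, 25.9, 29.3, 21.4 and 32.7 in affected foxes 19, 55, 107, 381 and 757 and 42.0, 23.4 and 25.8 in unaffected foxes 86, 97 and 402. Apart from fox 86 all foxes lay between 21.4 and 32.7. The difference was -0.12 ± 0.19 (SE; 95% interval -0.54 to 0.30; limma, unadjusted p = 0.533), and it turned to 0.051 without unaffected fox 86.

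The other MS4A2 probe set was more spread. CfaAffx.16206.1.S1_s_at, below the filter, read 2.76, 2.80, 18.7, 1.14 and 26.7 in affected foxes 19, 55, 107, 381 and 757 and 33.5, 26.2 and 12.5 in unaffected foxes 86, 97 and 402. It was at background in affected foxes 19, 55 and 381, and all 3 unaffected foxes were above background. The log2 difference was -0.67 with overlapping groups (two-sided exact permutation p = 0.179). Foxes 19, 55 and 381 are also 3 of the 4 foxes with low 5' actin, described below, and with the actin set as a covariate the difference was -0.42.

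The mediator enzymes were at the limit of the array. HDC, which makes histamine from histidine, was above background in 1 affected and 2 unaffected foxes, with 26.3 in fox 55 and 14.4 and 9.08 in unaffected foxes 97 and 402. Affected fox 107 also read 14.4, just below its own background of 14.7, so these counts do not show a group difference. HPGDS was above background on 3 arrays with Cfa.1584.1.S1_at and on 6 with Cfa.1584.2.S1_s_at, where affected foxes ranged from 10.0 to 35.6 around a mean of 19.3 and unaffected foxes from 8.56 to 20.6. Affected female 381 and affected male 19 were the highest on that probe set, and the difference of 0.17 was not detectable at this signal (two-sided exact permutation p = 0.554).

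**Figure D3:**
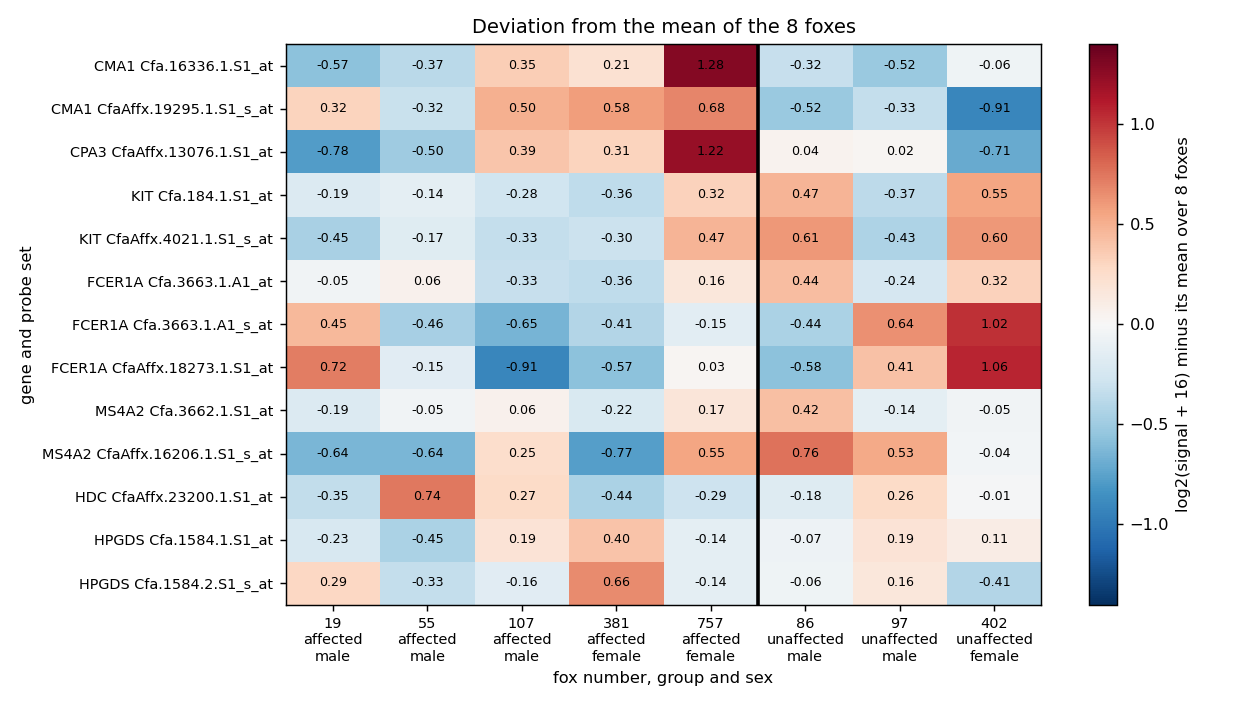
Each cell is the log2(signal + 16) of a probe set (rows) in a fox (columns, affected left of the black line) minus its mean over the 8 foxes; red is higher and blue lower. Affected fox 757 is above the mean on 1.28 and 1.22 for CMA1 Cfa.16336.1.S1_at and CPA3, and unaffected fox 402 is the lowest on CMA1 CfaAffx.19295.1.S1_s_at, at -0.91, and the highest on both tested FCER1A probe sets.

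Over the 7 tested probe sets, 2 had higher and 5 had lower means in affected foxes, and limma called 0 of 7 at an adjusted p under 0.05 against 0% of 25754 probe sets. Of the 7, 1 had an unadjusted p under 0.05 (CMA1), where 2.69% of all tested probe sets did, and the groups did not overlap in the same 1, against 2.43% in either direction and 0.909% with affected foxes higher. Since CMA1 passed the filter only through its higher group, nothing is read from these counts. Without a filter 4 of the 13 member probe sets had higher and 9 lower means in affected foxes, most of them at background on some arrays. The same 1 of 13 had an unadjusted p under 0.05 (limma, 3.47% of all 42924 probe sets) and groups that did not overlap (2.74%). The median log2 difference was -0.12 over the 13, and -0.013 over all 42924 probe sets. Among the probe sets that passed the filter, taking the one with the highest mean for each gene, 2 of 5 genes were higher, with a median log2 difference of -0.12. Over all 10824 tested genes the median was -0.026, and 45.3% were higher. The granule proteases had higher means and the tested receptor probe sets lower means in affected foxes, and the intervals of the other 6 probe sets include 0.

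**Figure D4:**
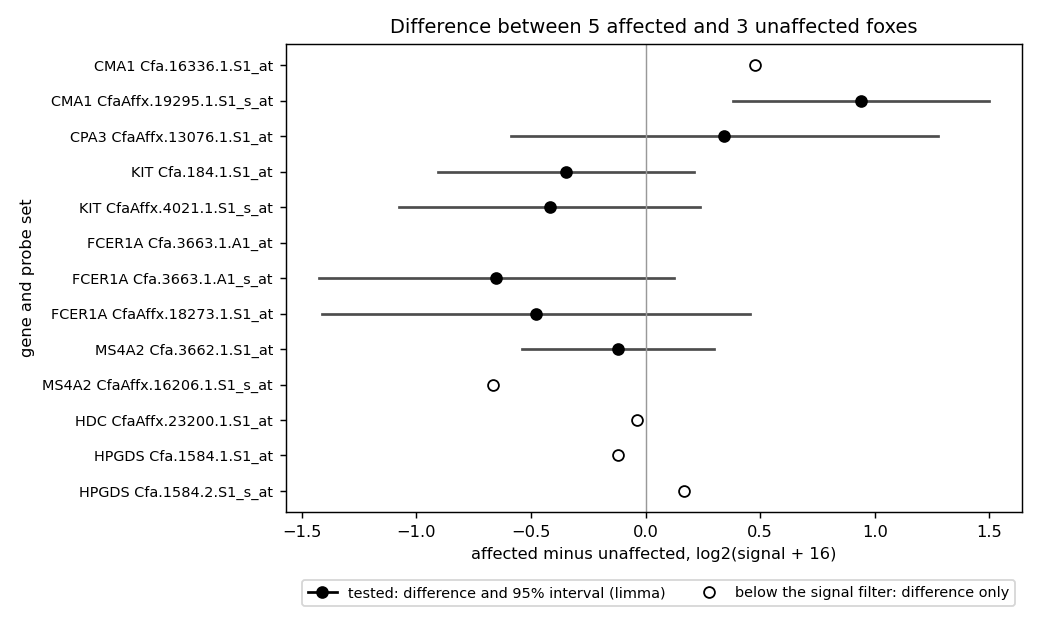
Difference between 5 affected and 3 unaffected foxes for each probe set, on the log2(signal + 16) scale; filled points carry limma's 95% interval, and open points are probe sets below the filter, given without one (none for FCER1A Cfa.3663.1.A1_at, at background in all 5 affected foxes). Of the filled points only CMA1, at 0.94, has an interval that leaves out 0, and it passed the filter only through its higher group.

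The sex of the foxes was asked about next, with only 1 unaffected female (402) behind every difference in females. CPA3 differed by -0.33 within males (3 affected, 2 unaffected) and by 1.48 within females (2 affected, 1 unaffected). The difference between the sexes was 1.81 ± 0.68 (SE; limma, unadjusted p = 0.0294), and it did not pass over the array (adjusted p = 0.99995). For CMA1 CfaAffx.19295.1.S1_s_at the values were 0.59 and 1.54, a difference between the sexes of 0.95 (limma, unadjusted p = 0.0862). For the tested FCER1A probe sets the differences were -1.30 and -1.34 in females and -0.32 and -0.032 in males, a difference between the sexes of -0.98 and -1.30 (limma, unadjusted p = 0.207 and 0.161). KIT differed by -0.25 and -0.41 in males and by -0.57 and -0.52 in females, and MS4A2 Cfa.3662.1.S1_at by -0.20 and 0.031. In this comparison limma called 0% of 25754 probe sets. An unadjusted p under 0.05 was found for 1 of 7 member probe sets, CPA3, and for 2.48% of all tested.

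The arrays also split by the signal of a 5' actin control probe set, high in foxes 86, 97, 107 and 757 (7831 to 8868) and low in the other 4 (1354 to 2336). Each set held affected and unaffected foxes, so differences were taken within each. CMA1 CfaAffx.19295.1.S1_s_at differed by 1.02 within the high set (2 affected, 2 unaffected) and by 1.10 within the low set (3 affected, 1 unaffected), as much as over all foxes. The second CMA1 probe set differed by 1.23 in the high set and by -0.19 in the low set. CPA3 differed by 0.77 and 0.39, and it read higher in the high set as a whole, by 0.84 over all foxes. MS4A2 CfaAffx.16206.1.S1_s_at read higher there by 1.04, a larger gap than its -0.67 between disease groups. Its disease difference was -0.25 in the high set and -0.64 in the low set.

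For KIT and FCER1A the groups lay further apart in the low set, where fox 402 was the only unaffected fox. The KIT probe sets differed by -0.031 and -0.021 in the high set and by -0.78 and -0.91 in the low set. The FCER1A probe sets differed by -0.50 and -0.36 in the high set and by -1.16 and -1.06 in the low set. With the actin set as a covariate over all foxes the KIT differences were -0.35 and -0.40 and the FCER1A differences -0.78 and -0.66. None of these passed in limma (adjusted p = 0.9989).

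**Figure D5:**
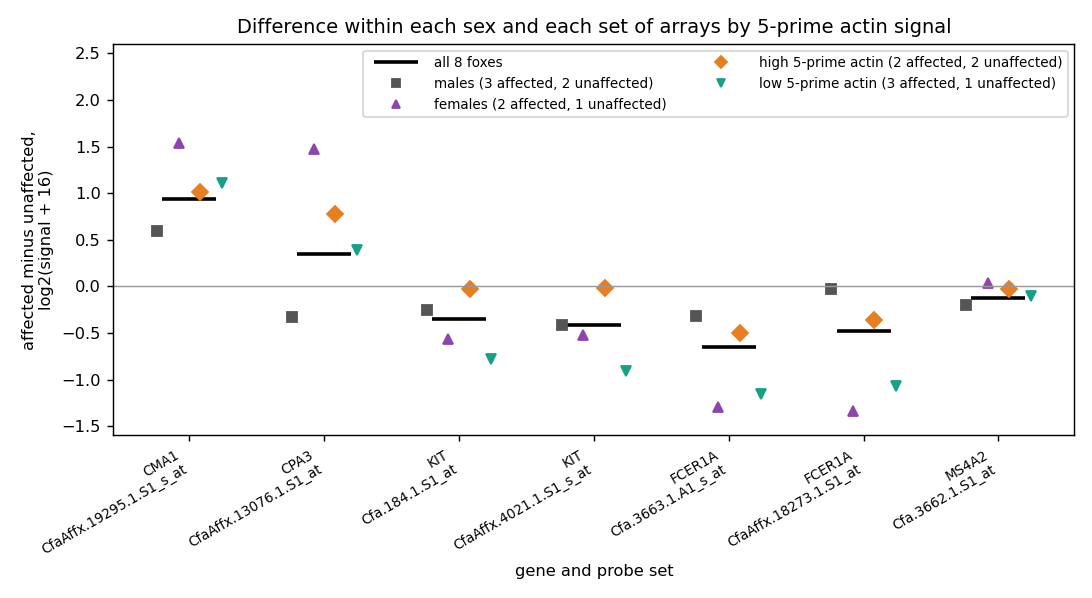
Affected minus unaffected difference on the log2(signal + 16) scale for the 7 tested probe sets, over all 8 foxes (black bar), within males and females, and within arrays of high and low 5' actin signal (coloured symbols). All 4 symbols of CMA1 lie above 0, between 0.59 and 1.54, a sign fixed in advance by groups that do not overlap. CPA3 has males below 0, at -0.33, and females at 1.48.

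Whether the mast cell genes varied together over the 8 foxes was asked with 21 pairwise correlations of log2(signal + 16), with exact permutation of the foxes. Where r is given without 2 foxes, these were the 2 farthest from the median of the first probe set of the pair, which narrows its range. For the marker sums below they were the 2 farthest from the median of the sum. Both pairs of tested probe sets of the same gene correlated. The KIT pair had r = 0.974 (exact permutation p = 0.00194, adjusted 0.0203) and rho = 0.810 (exact p = 0.0218, adjusted 0.229), and r was 0.934 without foxes 86 and 402. The FCER1A pair had r = 0.945 (exact permutation p = 0.00057, adjusted 0.0120) and rho = 0.905 (exact p = 0.00456, adjusted 0.0958), and r was 0.942 without foxes 97 and 402. Pairs with a probe set that was not tested had lower r, given as a description: 0.742 for MS4A2, 0.585 for CMA1, 0.480 for HPGDS, and 0.206 and 0.313 for the dimmest FCER1A probe set with the others.

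Between different genes 0 of 19 pairs passed after adjustment, with a smallest adjusted p of 0.271. That pair was KIT CfaAffx.4021.1.S1_s_at and MS4A2 Cfa.3662.1.S1_at, with r = 0.708 (exact permutation p = 0.0387) and rho = 0.643 (exact p = 0.0962). Its r was 0.779 without foxes 86 and 402. CMA1 CfaAffx.19295.1.S1_s_at and CPA3, which share the same granules, had r = 0.625 (exact permutation p = 0.0964, adjusted 0.405) and rho = 0.643 (exact p = 0.0962, adjusted 0.404). Its r was 0.245 without foxes 402 and 757, the 2 farthest from the CMA1 median, and 0.475 to 0.847 without any 1 fox. With each group centred on its own mean r was 0.739, and with each actin set centred it was 0.721. The other CMA1 probe set, below the filter, had r = 0.843 and rho = 0.833 with CPA3, given as a description. That probe set was at background in 2 affected and 2 unaffected foxes. CPA3 and FCER1A CfaAffx.18273.1.S1_at ran in opposite directions, with r = -0.546 (exact permutation p = 0.163, adjusted 0.480) and rho = -0.667 (exact p = 0.0831, adjusted 0.404).

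Other genes of mast cell biology were read from lists by role, each gene by its probe set with the highest mean, and limma called 0 genes in any of these 8 lists, with 0 at an unadjusted p under 0.05. Of the granule proteases and stores, 5 of 10 listed genes were tested, 3 with higher and 2 with lower means (median 0.041). The tryptase genes TPSAB1, TPSB2 and TPSG1, the classic mast cell proteases, are not in the annotation used here. SLC18A2, the transporter that loads histamine into granules, read 151 ± 25.3 (SD, n = 5) against 133 ± 30.7 (SD, n = 3), a difference of 0.17, and CTSC, which activates granule proteases, differed by 0.12. DPP4 read 55.5 ± 35.5 against 119 ± 76.3, a difference of -0.84 ± 0.46 (SE; limma, unadjusted p = 0.10), with its other probe set at -0.58. SRGN, the granule proteoglycan, differed by -0.011.

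Downstream of the IgE receptor, 17 of 19 genes were tested, 10 with higher and 7 with lower means (median 0.021). SYK, the kinase recruited to the receptor, read 108 ± 47.2 (SD, n = 5) against 89.9 ± 80.0 (SD, n = 3), a difference of 0.38, and its other probe set gave 0.19. PLCG1, which releases the calcium signal, differed by -0.41 ± 0.25 (SE; limma, unadjusted p = 0.139), with its other probe set at -0.17. VAMP8 and SNAP23, of the machinery that fuses granules with the membrane, differed by 0.21 and -0.46. FCER1G, the receptor's gamma chain that macrophages carry too, was named for that role after its value was seen and differed by -0.43.

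In the list of stem cell factor and KIT signalling 12 of 16 genes were tested, 2 with higher and 10 with lower means (median -0.085, against -0.026 over all genes). SPRED1, an inhibitor of RAS signalling, read 111 ± 72.3 (SD, n = 5) against 149 ± 41.2 (SD, n = 3), a difference of -0.53 ± 0.42 (SE; limma, unadjusted p = 0.237). SOS1, which loads RAS with GTP, differed by -0.31, and its other probe sets by -0.35 and -0.14. STAT5B and GRB2, a transcription factor and an adaptor below KIT, differed by 0.19 and 0.16, but the other GRB2 probe set by -0.11. KITLG, stem cell factor itself, named for its role after its value was seen, differed by -0.036.

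Of the transcription factors, 7 of 10 were tested, 6 higher and 1 lower (median 0.25). ZEB2 and GATA1 differed by 0.35 and 0.25 and TFE3 by -0.11, although the other GATA1 probe sets gave -0.063 and -0.044 and the other TFE3 probe set 0.59. GATA2, a factor that mast cells need, was above background on 1 array, TAL1 on 4 and FOSB on 0. Of the surface receptors, 9 of 18 were tested, 8 higher and 1 lower (median 0.064). IL3RA, a cytokine receptor chain, read 25.0 ± 7.96 (SD, n = 5) against 14.2 ± 9.97 (SD, n = 3), a difference of 0.47 ± 0.24 (SE; limma, unadjusted p = 0.0730), at background in 2 unaffected foxes, and its other probe set gave 0.13. The unaffected mean lay below the filter, so this probe set passed only through its higher group and its p-value is a description. CD63, a granule membrane protein exposed on degranulation, differed by 0.29 and its other probe set by 0.33. The integrin chain ITGAE differed by -0.30.

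Genes around the mediators were mostly dim or level. In histamine turnover only HNMT, which inactivates histamine, was tested of 7 genes, and it differed by -0.042. In prostaglandin and leukotriene synthesis 12 of 16 genes were tested, 5 higher and 7 lower (median -0.053). PLA2G4A, which frees arachidonic acid, read 85.6 ± 15.8 (SD, n = 5) against 65.2 ± 18.2 (SD, n = 3), a difference of 0.33 ± 0.21 (SE; limma, unadjusted p = 0.140), with other probe sets at 0.23 and 0.47. PTGDR, a receptor for prostaglandin D, differed by -0.60 ± 0.37 (SE; limma, unadjusted p = 0.140), PTGES3 by -0.63 and HPGD, which degrades prostaglandins, by 0.46.

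Among type 2 cytokines and alarmins 5 of 14 genes were tested, 4 higher and 1 lower (median 0.23). CCL2, a chemokine for monocytes, differed by 0.45 ± 0.42 (SE), and IL33, an epithelial alarmin that acts on mast cells, by 0.23 ± 0.45 (SE). IL13RA1 differed by -0.22. IL13, TSLP and CCL26 were at background on all 8 arrays.

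Markers of other cells that carry the same genes were read beside them. Of 8 melanocyte genes, which share KIT, 5 were tested, 2 higher and 3 lower (median -0.072). Their summed signal ranged from 178 to 535 across affected foxes and from 177 to 836 across unaffected ones, and TYR and DCT were at background on 5 arrays and MLANA on 4. Fox 402, with the highest sum (836), was also high for KIT, and foxes 97 and 107, with the lowest (177 and 178), were low for it. Foxes 19 and 381 had high sums (535 and 519) but low KIT, whereas fox 86 had high KIT at a sum of 385. Against KIT Cfa.184.1.S1_at the sum had r = 0.589 (exact permutation p = 0.132, adjusted 0.385) and rho = 0.524 (exact p = 0.197, adjusted 0.459), and r fell to 0.320 without foxes 97 and 107. Against the other KIT probe set it had r = 0.533 (exact permutation p = 0.183, adjusted 0.428) and rho = 0.238 (exact p = 0.582, adjusted 0.741), and r was 0.247 without them. With each actin set centred on its own mean r was 0.811 for both.

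Of 10 dendritic and Langerhans cell genes, which share FCER1A, 6 were on the array and 4 were tested, 1 higher and 3 lower (median -0.18). The sum ranged from 138 to 232 across affected foxes and from 138 to 444 across unaffected ones. XCR1 was at background on all 8 arrays and CD1C on 7. CD1A, CD207, CLEC10A and CLEC9A are not in the annotation used here. The sum was therefore mostly the signal of FLT3, CD83, LAMP3 and CCR7. A relation of FCER1A with Langerhans cells, or with the dendritic cells that carry it, was not tested by the r given below. The sum was lowest in foxes 19, 402 and 97 (138, 138 and 146), the 3 foxes with the highest FCER1A. Of 9 basophil and eosinophil genes 5 were on the array and 2 were tested, both higher (median 0.13), with sums of 1017 to 1633 and 1186 to 1340 and EPX at background on 7 arrays. Against the dendritic sum FCER1A Cfa.3663.1.A1_s_at had r = -0.741 (exact permutation p = 0.0274, adjusted 0.193) and rho = -0.714 (exact p = 0.0576, adjusted 0.243), with r = -0.978 without foxes 19 and 86. For FCER1A CfaAffx.18273.1.S1_at r was -0.761 (exact permutation p = 0.0198, adjusted 0.193) and rho -0.881 (exact p = 0.00724, adjusted 0.243), with r = -0.911 without the same foxes. With each disease group centred on its own mean these r were -0.936 and -0.846. FCER1A CfaAffx.18273.1.S1_at also ran against the macrophage, fibroblast and endothelial sums (r = -0.820, -0.774 and -0.723). With the keratinocyte and melanocyte sums its r was 0.527 and 0.498. MS4A2 Cfa.3662.1.S1_at ran with the dendritic sum (r = 0.831, and 0.365 without foxes 19 and 86). Against the basophil and eosinophil sum r lay between -0.376 and 0.250 for the 7 tested member probe sets. Most of that sum was the signal of PRG3, whose lowest value was 951 and highest 1540. IL5RA was at background on 4 arrays and CCR3 on 3, and GATA1 is also on the list of mast cell transcription factors. A relation with basophils was therefore not tested by these r.

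Summed markers of 8 cell types were also set against the 7 tested member probe sets over the 8 foxes. Of these 56 relations 9 had an unadjusted p under 0.05 and 0 passed after adjustment (smallest adjusted p = 0.193). FCER1A Cfa.3663.1.A1_s_at ran against the macrophage sum, with r = -0.874 (exact permutation p = 0.0139, adjusted 0.193) and rho = -0.690 (exact p = 0.0694, adjusted 0.243), and r was -0.892 without foxes 19 and 97. MS4A2 Cfa.3662.1.S1_at ran against the keratinocyte sum, with r = -0.836 (exact permutation p = 0.0125, adjusted 0.193) and rho = -0.738 (exact p = 0.0458, adjusted 0.243), but r was -0.525 without foxes 86 and 97. Affected foxes had macrophage sums of 1165 to 3844 and unaffected foxes 1431 to 4510, with 8 of 10 genes above background on all arrays, and keratinocyte sums were 13518 to 18774 and 9220 to 21928. In the macrophage list 7 of 8 tested genes had higher means (median 0.16), and in the keratinocyte list 3 of 6 (median -0.034). The same was 5 of 8 for fibroblasts (0.13), 2 of 7 for endothelium (-0.15) and 1 of 3 for innate lymphoid and natural killer cells (-0.10), against 45.3% of all tested genes. Among the macrophage genes CD68 alone had an unadjusted p under 0.05 (0.0118 in limma), as did 2.69% of all tested probe sets. CD68 differed by 1.07, but its other probe set by 0.31.

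The genes most like each member over the 8 foxes were taken by Pearson's r among 10497 symbols, as a description with no test. For CMA1 CfaAffx.19295.1.S1_s_at these were GYG1 (0.927), SLC22A6 (0.924), MAGI1 (0.922), BSDC1 (0.916) and NIPAL3 (0.911). For CPA3 they were SMPD1 (0.981), MACIR (0.958), CHCHD10 (0.951), LLGL1 (0.940) and SOAT2 (0.939). For KIT they were SPECC1L (0.971), TBC1D13 (0.952), SPATS1 (0.948), NOP10 (0.947) and ZEB1 (0.940).

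For FCER1A the list read KBTBD4 (0.967), DUS4L (0.962), FBXL2 (0.954), NEURL4 (0.948) and BCO1 (0.947), and for MS4A2 it read MAN2A1 (0.988), GLCCI1 (0.982), ERLEC1 (0.977), CHN2 (0.966) and SEC61G (0.966). The number of symbols with r over 0.9 was 7 for CMA1, 20 for CPA3, 12 for KIT, 31 for FCER1A and 112 for MS4A2. No other mast cell gene was among the 5 nearest of any member.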

How the data were processed

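Gingiva RNA of 8 red foxes was read on dog arrays, 1 array per fox. The authors deposited 1 linear intensity per probe set and array, MAS5 signal according to the submitters' processing notes. The MAS5 version, the scaling target and any detection calls were not among the sources used here. A trimmed mean (2% cut from either tail) came to 150.0 on each array, and the median signal ran from 28.6 to 33.7. Of 43035 probe sets 111 were controls; of the other 42924 the platform annotation gave 1 symbol for 29254, several for 439 and none for 13231.

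From these values log2(signal + 16) was taken with no further normalization. Controls and the dimmest 40% of the others by mean log2 value were dropped, which kept 25754. Groups were compared with limma 3.58.1 (R 4.3.3), using lmFit, eBayes and Benjamini-Hochberg adjustment over all 25754 at a threshold of 0.05, and sexes with an interaction term. Single values were also tested by two-sided exact permutation in R, and correlations by exact permutation in Python 3.11.15 with NumPy 2.4.6. Ranks and the Benjamini-Hochberg adjustment of the correlations came from SciPy 1.17.1. The median standard error of a difference was 0.23. The fits were also run on simulated arrays of independent normal values with known shifts added. These arrays held no effect shared across probe sets, such as the actin set or tissue make-up, and their outcome is not reported here.

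Named were all member probe sets, from each other list up to 2 genes per direction with the smallest p, and the 5 symbols most correlated with each member, passing over LOC and ENSCAFG names. The members and lists were chosen with earlier results of these data known. Alternatives covered the offset, quantile normalization, the filter, sex, the actin set, array weights, the prior variance, the threshold and each fox left out in turn; a filter on mean signal and an average over all probe sets of a gene were added after seeing the data. The RefSeq red fox table (VulVul3) was used for names and neighbouring genes only, and 5 of the 7 members matched a symbol in it. CMA1 and MS4A2 did not.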

Additional observations from a re-analysis of the deposited data

Results flagged for a closer look

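Within the 5 affected foxes, 65 probe sets (the members and the named genes of the other lists) were searched on the signal and log2 scales for 1 fox far from the rest, by Dixon's ratio of its gap to the whole range. Of 130 such sets of values 9 stood out, from 7 probe sets, where chance gives about 1 in 20. Both KIT probe sets did so on the signal scale only: fox 757 read 57.9 where the other affected foxes read 30.2 to 37.9 on Cfa.184.1.S1_at (ratio 0.722), and 70.0 against 29.3 to 39.0 on CfaAffx.4021.1.S1_s_at (ratio 0.762). Fox 55 accounted for 4 of the other probe sets. It read 39.0 for IL3RA against 20.0 to 23.4 (ratios 0.820 and 0.786 on the signal and log2 scales) and 14.3 for TIE1 against 33.6 to 40.6 (ratios 0.733 and 0.788). It read 32.3 for EMCN against 83.6 to 114 (ratio 0.734, log2 scale) and 3695 for VAMP8 against 2389 to 2741 (ratio 0.731, signal scale). Fox 19 read 67.8 for FBLN1 against 151 to 192 in the other affected foxes (ratio 0.754, log2 scale).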

How the results depend on the processing

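limma called 0 probe sets, members included, in every alternative run for the disease and the sex comparison. Both tested probe sets of KIT and of FCER1A kept their direction in 22 of 22 alternatives. These alternatives reuse the same arrays, so they are not independent tests. The differences ranged from -0.78 to -0.031 on KIT Cfa.184.1.S1_at and from -0.91 to -0.021 on KIT CfaAffx.4021.1.S1_s_at. They ranged from -1.30 to -0.32 on FCER1A Cfa.3663.1.A1_s_at and from -1.34 to -0.032 on FCER1A CfaAffx.18273.1.S1_at. The last of these passed the filter only through its higher group. CMA1 CfaAffx.19295.1.S1_s_at also kept its direction in 22 of 22, with differences from 0.40 to 1.54. Its groups do not overlap, so leaving out or splitting foxes could not turn its direction, and nothing is read from that count. The smallest adjusted p of a member over the alternatives was 0.955 and the largest 0.99999. Among tested probe sets directions turned 3 times: CPA3 was -0.33 in males only, and MS4A2 Cfa.3662.1.S1_at was 0.031 in females only and 0.051 without unaffected fox 86; the cause was not tested. Of the untested ones, CMA1 Cfa.16336.1.S1_at was -0.19 within low 5' actin, HPGDS Cfa.1584.2.S1_s_at (0.17) was -0.12 in males and -0.20 within high 5' actin, and HPGDS Cfa.1584.1.S1_at (-0.12) was 0.021 in females. HDC (-0.038) was 0.18 in males and 0.032 to 0.082 without fox 19, 97, 381 or 757 in turn, and it came to 0.00052 with an offset of 64. The median of the tested members was -0.23 to 0.051 with each fox left out in turn, -0.32 in males, 0.031 in females and 0.023 among probe sets above background on at least 4 arrays. No paired analysis was possible because the groups share no fox number. The sex comparison without fox 402 was not run, since no unaffected female is left. Signals near background limit CMA1, HDC and HPGDS most.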

Other observations

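GYG1, glycogenin, lies next to CPA3 in the red fox annotation and was also the symbol most like CMA1, there by probe set Cfa.21041.1.S1_s_at (r = 0.927), and it is named here because of its values. Its other probe set Cfa.4710.1.A1_at ranged from 583 to 1023 across affected foxes and from 283 to 560 across unaffected ones. These did not overlap, as in 2.43% of all tested probe sets in either direction and 0.909% with affected foxes higher. The log2 difference was 0.88 ± 0.27 (SE; limma, adjusted p = 0.9999). Over the 8 foxes r of this probe set was 0.907 with CMA1 CfaAffx.19295.1.S1_s_at and 0.71 with CPA3, the neighbour of GYG1. The CMA1 probe set also has groups that do not overlap, so part of the r of 0.907 can follow from the disease groups. A link between these genes was not tested. KIT lies between KDR and PDGFRA in the same annotation.

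CSF2RB, the shared receptor chain for IL3 and GM-CSF, had the widest spread in the surface receptor list by the ratio of its highest to its lowest signal and is named for that reason. It ranged from 3.91 to 1923 across affected foxes and from 22.9 to 1510 across unaffected ones.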
